A study of Mus musculus with 18 samples.

Results

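The 10 genes described here mark amacrine and horizontal cells of the mouse retina, and they were taken from 21911 protein-coding genes of the GENCODE M21 annotation. They were chosen by name: the transcription factors Pax6, Tfap2a, Tfap2b, Ptf1a, Prox1, Lhx1, Onecut1 and Onecut2, the GABA-synthesizing enzyme Gad1 and the glycine transporter Slc6a9. For each gene, open chromatin was read from the ATAC-seq peaks that overlap a window reaching from 10000 bp upstream of the gene start to the gene end (mm10). Overlapping peaks of the 18 deposited lists were joined into regions, which gave 63 regions in these windows. Of these, 50 had a peak in 2 libraries or more and belong to a set of 73567 such regions genome-wide, and 13 were seen in 1 library each. A region is said to be called in a library when that library's list holds a peak there.

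The study profiled bulk retina of wild-type mice by ATAC-seq, an assay in which a transposase cuts accessible DNA. The 18 libraries fall into 6 groups of 3, namely retinas of untreated mice aged 3 or 18 months, retinas of eyes whose intraocular pressure (IOP) was raised at either age to 30 mmHg for 1 hour, and retinas of the contralateral eyes of IOP-treated mice, with treated and contralateral retinas collected on day 2 by the labels, where the study's text gives a day later. The groups are named 3mo or 18mo untreated, contralateral and IOP. Untreated libraries carry the replicate numbers 4 to 6 and the other groups 1 to 3. The treatment text shared by all 18 samples also names dasatinib or vehicle injections without assigning them to a sample, and the shared extraction text describes crosslinking and an antibody step although the titles name ATAC-seq. The study's text calls its ATAC-seq replicates biological, while the labels do not say which libraries come from the same mouse, and the p-values measure the spread between these libraries. In bulk retina, fewer cells of a type and less open chromatin per cell cannot be told apart.

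Amacrine and horizontal cells are the inhibitory interneurons of the retina. Horizontal cells modulate the synapse between photoreceptors and bipolar cells, whereas amacrine cells act on bipolar, ganglion and other amacrine cells and release mainly GABA or glycine. Both types arise from progenitors in which Ptf1a acts, and the AP-2 factors Tfap2a and Tfap2b, the LIM-homeodomain factor Lhx1, the Onecut factors and Prox1 take part in their differentiation or later identity. Both are a small part of the retina, in which rods are by far the most numerous cells.

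The lists held 36011 to 66160 peaks per library. The shortest listed peak was 79 to 89 bp in the 6 untreated libraries. Of the remaining libraries, contralateral and IOP, 5 had a shortest peak of 114 to 122 bp and 7 of 148 to 157 bp, and the median peak width ran from 161 to 192 bp, from 264 to 283 bp and from 359 to 395 bp in these classes. Untreated libraries and their class of peak width cannot be told apart. The promoter of each of 8 rod genes was called in all 18 libraries, as were the promoters of 2 of 6 cone, 3 of 7 bipolar, 2 of 5 Müller glia and 1 of 5 ganglion cell genes. This was so for 53.2% of all protein-coding genes. No promoter of 5 microglial, 3 endothelial, 4 pigment epithelial or 5 non-retinal genes was called in any library, as for 35.8% of all protein-coding genes. The same held for 1 cone, 1 Müller glia and 1 ganglion cell gene. Away from promoters, the windows of 2 microglial, 1 endothelial and 1 pigment epithelial gene held a region called in all 18.

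Sequences are given for the regions on which the results turn, as the 200 bases around the median summit on the + strand of GRCm38.p6 (RefSeq), a build whose chromosomes contained all peak positions. They are Tfap2a region 6 (chr13:40722857-40723056), the highest-ranked region of the 10 genes; Onecut1 region 1 (chr9:74861693-74861892), which lies just upstream of a start called in every library; Pax6 region 3 (chr2:105661854-105662053) and Gad1 region 5 (chr2:70572337-70572536), which had the smallest age p-values by calling and by rank; and Slc6a9 regions 2 (chr4:117830148-117830347), 3 (chr4:117836317-117836516), 8 (chr4:117862912-117863111) and 11 (chr4:117871321-117871520), which were called in every library. The last sequence is the 250 bases upstream of the RefSeq start of Ptf1a (chr2:19445413-19445662, + strand), shown because no peak overlapped it in any library. Where they occur, capitals mark the letters CAGCTG, an E-box bound by bHLH factors such as Ptf1a, and TAATCC, the site of the photoreceptor and bipolar factors Crx and Otx2.
Tfap2a region 6: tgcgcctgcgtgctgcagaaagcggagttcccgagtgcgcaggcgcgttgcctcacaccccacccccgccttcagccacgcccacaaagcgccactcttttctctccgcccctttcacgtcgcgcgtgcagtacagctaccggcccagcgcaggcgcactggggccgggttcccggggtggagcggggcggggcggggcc
Onecut1 region 1: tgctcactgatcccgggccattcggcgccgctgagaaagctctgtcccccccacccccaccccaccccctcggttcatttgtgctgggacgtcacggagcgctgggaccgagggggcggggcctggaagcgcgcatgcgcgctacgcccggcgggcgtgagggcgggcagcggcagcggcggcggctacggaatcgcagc
Pax6 region 3: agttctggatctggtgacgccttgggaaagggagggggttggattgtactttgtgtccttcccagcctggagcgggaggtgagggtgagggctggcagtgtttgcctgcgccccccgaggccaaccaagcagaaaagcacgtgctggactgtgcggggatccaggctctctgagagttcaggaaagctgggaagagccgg
Gad1 region 5: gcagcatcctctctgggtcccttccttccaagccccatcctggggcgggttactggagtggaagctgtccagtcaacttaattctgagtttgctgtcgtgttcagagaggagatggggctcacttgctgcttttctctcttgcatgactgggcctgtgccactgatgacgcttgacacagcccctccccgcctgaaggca
Slc6a9 region 2: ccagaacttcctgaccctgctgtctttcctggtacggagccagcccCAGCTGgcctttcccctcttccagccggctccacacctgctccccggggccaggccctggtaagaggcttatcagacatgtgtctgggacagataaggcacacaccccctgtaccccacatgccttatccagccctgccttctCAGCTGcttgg
Slc6a9 region 3: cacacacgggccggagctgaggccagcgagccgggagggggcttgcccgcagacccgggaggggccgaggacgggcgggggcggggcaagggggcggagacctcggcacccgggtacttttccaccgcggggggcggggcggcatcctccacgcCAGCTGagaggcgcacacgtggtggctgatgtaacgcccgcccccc
Slc6a9 region 8: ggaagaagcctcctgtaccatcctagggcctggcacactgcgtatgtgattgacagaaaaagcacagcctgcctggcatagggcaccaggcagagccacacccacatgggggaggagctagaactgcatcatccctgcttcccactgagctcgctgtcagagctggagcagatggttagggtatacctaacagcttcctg
Slc6a9 region 11: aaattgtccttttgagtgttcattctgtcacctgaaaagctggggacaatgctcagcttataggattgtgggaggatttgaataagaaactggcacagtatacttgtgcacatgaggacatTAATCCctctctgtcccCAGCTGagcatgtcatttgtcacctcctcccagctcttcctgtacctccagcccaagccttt
Ptf1a promoter: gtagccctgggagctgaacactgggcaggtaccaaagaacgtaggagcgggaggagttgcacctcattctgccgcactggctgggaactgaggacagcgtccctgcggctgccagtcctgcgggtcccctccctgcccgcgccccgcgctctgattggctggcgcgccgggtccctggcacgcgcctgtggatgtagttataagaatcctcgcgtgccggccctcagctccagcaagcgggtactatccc

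The letters CAGCTG were present in 13 of the 50 regions (26.0%) and in 17.3% of 73449 regions of the main chromosomes, searched in the same 200 bases. The general E-box CANNTG, which includes CAGCTG, was in 33 of the 50 regions (66.0%) and in 66.5% of all regions. Slc6a9 region 2 held 2 copies of CAGCTG, and Slc6a9 regions 3 and 11 held 1 each, whereas Tfap2a region 6, Pax6 region 3, Gad1 region 5, Slc6a9 region 8 and Onecut1 region 1 held none. The AP-2 site GCCNNNGGC was found in 5 regions (10.0%, against 11.3% of all), and TAATCC in 3 (6.0%, against 15.4%). The homeodomain letters TAATTA were in no region of the 10 genes and in 4.14% of all regions, and the AP-1 site TGANTCA was likewise in none, against 6.60%. The Onecut letters ATCAAT and ATCGAT were each in 1 region (2.0%, against 3.66% and 0.449%), and the STAT site TTCNNNGAA was in 3 (6.0%, against 4.40%). All motifs were read on both strands, and the median GC content of the 50 regions was 61.25%, against 52.5% over all regions. A match is a description of letters and not a measured binding site.

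Of the 50 regions, 13 were called in all 18 libraries (26.0%, against 33.6% of all regions), 10 in 12 to 17 libraries, 13 in 5 to 11 and 14 in 2 to 4. The 13 regions called everywhere were spread over 6 of the 10 genes: 7 at Slc6a9, 2 at Pax6 and 1 each at Tfap2a, Onecut1, Onecut2 and Gad1. By position, 16 of the 50 regions overlapped a promoter, taken as 1000 bp upstream to 100 bp downstream of any annotated start of the gene, while 20 had their summit in an intron, 10 upstream and 4 in an exon. Promoter regions were called in a median of 13 libraries, intronic ones in 13, upstream ones in 9.5 and exonic ones in 2. The promoters of Pax6, Onecut1, Onecut2, Gad1 and Slc6a9 were called in all 18 libraries, those of Tfap2a in 16, Prox1 in 13, Lhx1 in 8 and Tfap2b in 5, and that of Ptf1a in none. Over all protein-coding genes, 53.2% had a promoter called in every library and 35.8% had none called in any.

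**Figure D1:**
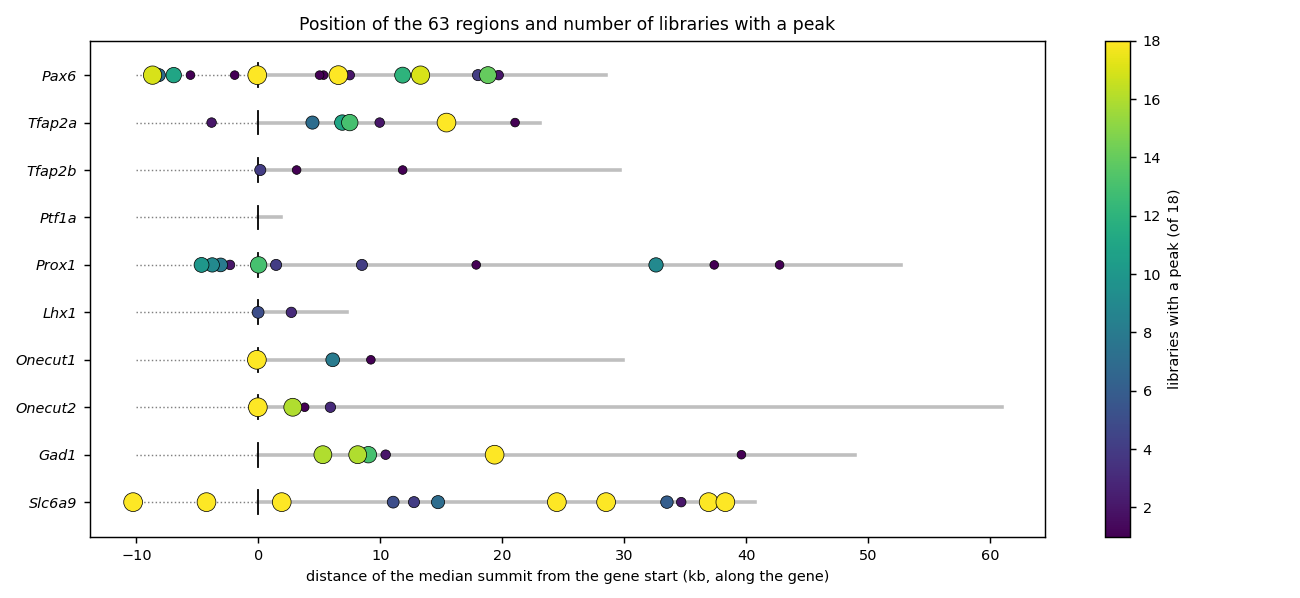
Position of the 63 regions along the 10 genes. The x axis gives the distance of the median summit from the gene start in kb along the gene, the dotted line the 10 kb upstream and the grey bar the gene, and colour and size give the number of libraries with a peak (of 18). Slc6a9 holds 7 of the 13 regions called in all 18 libraries, and Ptf1a holds no region.

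Pax6, a paired-box and homeodomain factor kept on in mature amacrine, horizontal and ganglion cells, lies at chr2:105668900-105697364 on the + strand. Its window held 15 regions, of which 11 were in at least 2 libraries. Region 6, 96 bp upstream of the gene start, was called in all 18 libraries with a mean percentile of 42.6 ± 12.5 (SD, n = 18) among all peaks of its library, ranked by -log10 q. Region 9, at a downstream start 6557 bp into the gene, was also called in all 18, at 39.4 ± 13.6. The region with the highest mean percentile was upstream region 1 at -8680 bp, within the noncoding genes Paupar and Pax6os1, at 48.2 ± 11.6 in 17 libraries. Intronic region 12, which overlaps a RefSeq promoter, was called in 17 libraries as well.

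Libraries listed 5 to 11 peaks at Pax6. The 3mo untreated libraries had 7, 6 and 9 peaks, the 3mo contralateral libraries 5, 9 and 6, and the 3mo IOP libraries 11, 5 and 7. The 18mo untreated libraries had 7, 6 and 5, the 18mo contralateral libraries 7, 6 and 10, and the 18mo IOP libraries 8, 8 and 5. The ranges of all 6 groups overlapped. Per 10 kb of window, Pax6 had 1.83 peaks on average, the densest of the 10 genes, against a median of 0.392 over all protein-coding genes.

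Tfap2a encodes an AP-2 factor of amacrine and horizontal cells and lies at chr13:40715302-40738376 on the - strand. Its region 6, an intronic region 15419 bp into the gene that overlaps the promoter of the noncoding gene Gm47061, was the highest-ranked of all regions of the 10 genes, with a mean percentile of 94.9 ± 3.83 and a mean fold over background of 14.8 ± 0.812 (SD, n = 18). By contrast, the regions at annotated starts of Tfap2a were weaker and less regular. Region 4 was called in 13 libraries at percentile 27.3 ± 11.4, region 3 in 11 at 15.2 ± 12.1 and region 2 in 7 at 17.3 ± 13.8. The noncoding gene Gm26688 overlaps all 3 of them. Peaks per library numbered from 1 to 7, the highest count being in 3mo contralateral replicate 2 and the value 1 in 3mo contralateral replicate 1 and 18mo untreated replicate 4.

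Tfap2b, the related AP-2 factor at chr1:19208914-19238576 on the + strand, was hardly represented. Its promoter region 1, 151 bp into the gene, was called in 4 libraries, 1 in each untreated and contralateral group, and not in the 6 IOP libraries. Regions 2 and 3 were each called in 3mo untreated libraries only, in 1 library apiece. A region without a listed peak may still have been open below the threshold of the peak caller.

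Ptf1a, a bHLH factor of the progenitors that give rise to both cell types, lies at chr2:19445663-19447501 on the + strand. No library listed a peak anywhere in its window of 11.8 kb. It was the single member with no peak in any library, a state shared by 22.0% of protein-coding genes. The 300-base RefSeq promoter of Ptf1a had a GC content of 67.3% and an observed-over-expected CpG ratio of 0.677, above the medians of 52.7% and 0.384 over 32851 RefSeq promoters.

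Prox1, a homeobox factor of horizontal cells and of some amacrine and bipolar cells, lies at chr1:190118035-190170714 on the - strand. Its promoter region 5, 16 bp from the gene start and overlapping the antisense gene Prox1os, was called in 13 libraries at percentile 18.0 ± 14.1. Upstream region 2, at -3785 bp, had the highest mean percentile of the gene, 29.1 ± 7.63 in 9 libraries, and no region was called in all 18. Prox1 was the member whose count varied most, with 1 to 7 peaks per library and a pooled SD within groups of 2.40. Libraries of the 114 to 122 bp class listed 4 to 7 peaks at Prox1, and those of the 148 to 157 bp class 1 to 4.

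Lhx1, a LIM-homeodomain factor of horizontal cells at chr11:84518284-84525535 on the - strand, had 0 or 1 peak in each library. Region 1, 24 bp upstream of the start and shared with the antisense gene Lhx1os, was called in 5 libraries, at percentile 12.2 ± 7.02. Region 2, at a start 2698 bp into the gene, was called in 3 others at 18.6 ± 9.12.

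The 2 Onecut genes, cut-homeodomain factors of horizontal cells, differed from Lhx1 in that their starts were called in every library. Onecut1 (chr9:74861921-74891781, + strand) had region 1 at -128 bp, with a mean percentile of 44.7 ± 11.6, and intronic region 2 in 8 libraries at 29.8 ± 17.6. Onecut2 (chr18:64340020-64400987, + strand) had region 1 at -48 bp with a mean percentile of 63.9 ± 15.2 (at the promoters of the 10 genes, only Slc6a9 region 3 was higher), and intronic region 2 in 16 libraries at 28.6 ± 16.6. Libraries listed 1 to 4 peaks at Onecut1 and 1 to 3 at Onecut2. The Onecut2 count was 2 in 14 of the 18 libraries.

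Gad1, which encodes a glutamate decarboxylase that makes GABA, lies at chr2:70553072-70602014 on the + strand. No region lay at its first annotated start, and its called promoters were regions 2 and 3, at starts 8141 and 9016 bp into the gene, which were called in 16 and 13 libraries. Region 5, in an intron 19365 bp into the gene, was the Gad1 region called in all 18, with a mean percentile of 43.1 ± 14.5. The antisense gene Gad1os overlaps regions 1 to 3.

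The 3mo untreated libraries had 4, 3 and 4 peaks at Gad1, the 3mo contralateral libraries 3, 5 and 3, and the 3mo IOP libraries 4, 2 and 5. At 18 months, each of the 6 untreated and contralateral libraries had 4 peaks and each of the 3 IOP libraries had 3. The 18mo IOP libraries thus lay below the contralateral ones without overlap, as they did at 7.42% of 12213 genes, and an exact permutation test gave p = 0.1, the smallest value that 3 against 3 libraries allow. With equal numbers of peaks per library they overlapped, at 2, 2 and 3 peaks upon IOP and 3, 2 and 1 in contralateral libraries.

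Slc6a9 encodes the plasma-membrane glycine transporter, which is carried by glycinergic amacrine cells and also by Müller glia, and lies at chr4:117834506-117875198 on the + strand. All of its 12 regions were in at least 2 libraries, and 7 were called in all 18. Region 3, at a start 1911 bp into the gene, had the second highest mean percentile of the 10 genes, 86.0 ± 2.42 (SD, n = 18), and the smallest spread of the regions called everywhere. Upstream region 2 at -4258 bp followed with 78.1 ± 4.05, and region 12, at the promoter of the neighbouring gene Ccdc24, with 77.8 ± 4.27. Regions 11 and 12 also lie within the overlapping gene B4galt2, so that the gene they serve is not given by position, and the summit of region 1 lies at -10275 bp, with its edge inside the window. Libraries listed 7 to 12 peaks at Slc6a9, or 1.79 per 10 kb of window on average.

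**Figure D2:**
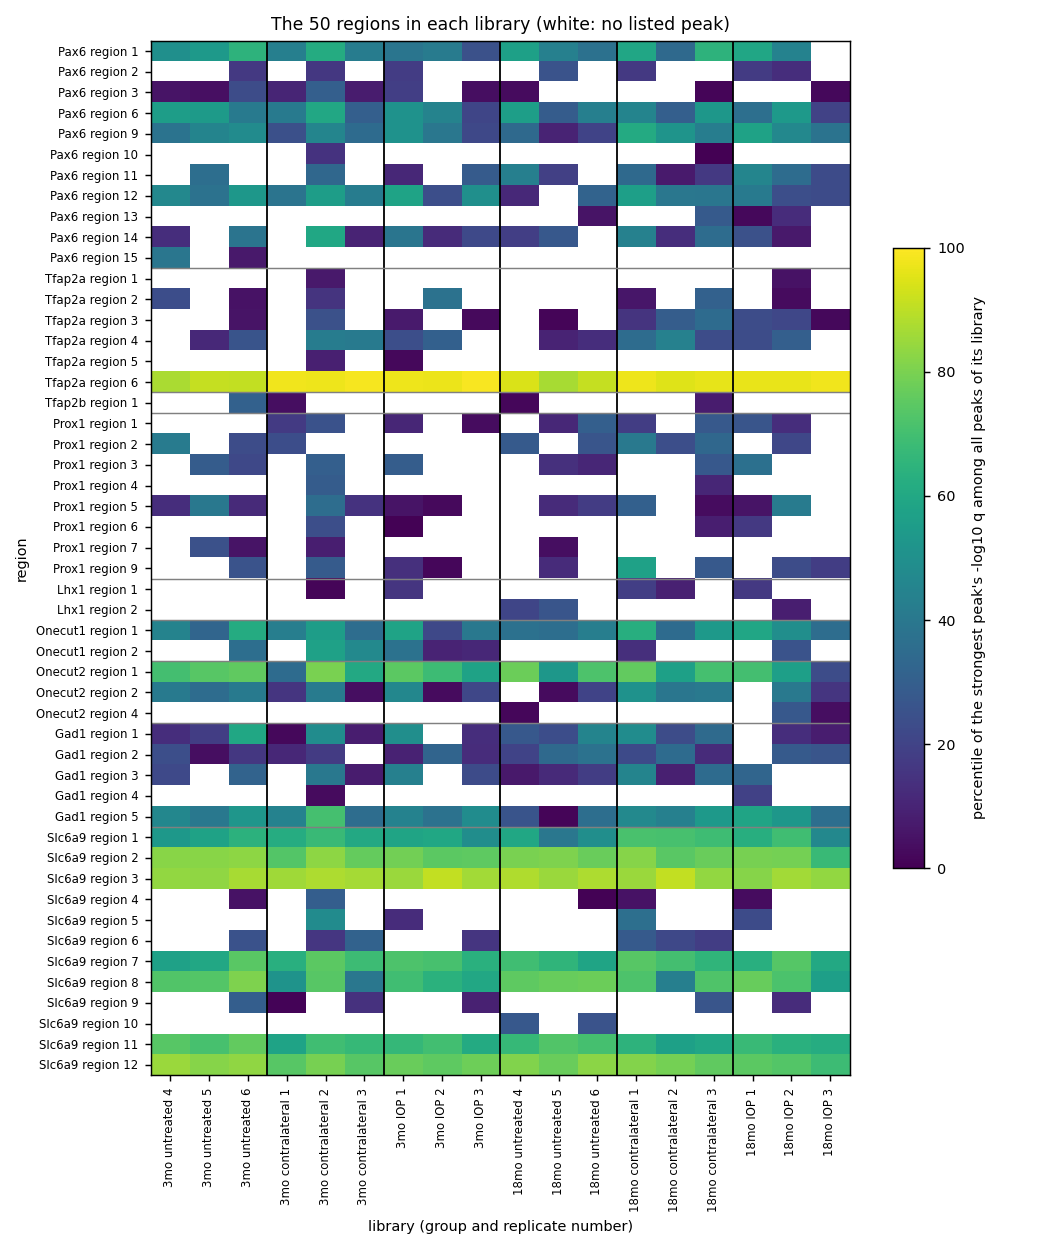
The 50 regions of the 10 genes in each of the 18 libraries. Rows are regions, columns are libraries by group, colour gives the percentile of the strongest peak's -log10 q among all peaks of its library, and white marks no listed peak. Tfap2a region 6 and Slc6a9 region 3 are bright in every column, whereas at Prox1, Lhx1 and Tfap2b 9 of 11 regions are called in at most 9 of the 18 libraries.

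To ask whether natural aging changed chromatin at these genes, the 6 control libraries of each age (untreated and contralateral) were compared. None of the 7 regions of the 10 genes that could reach p = 0.05 in the exact test of calls did so, against 3.58% of 9868 testable regions overall. No region passed after adjustment at these genes or anywhere (0% of regions, smallest adjusted p in the exact test 0.345), and the smallest p that the libraries allow, 0.00216, could itself pass only if many regions reached it. The smallest p at the 10 genes was that of Pax6 region 3, at -6946 bp and over the promoter of Paupar, which was called in 6 of 6 libraries at 3 months and in 2 of 6 at 18 months (exact test, two-sided, p = 0.0606). This is the lowest p that a region called in 8 of 12 libraries can reach, so that it was not among the 7. It was a weak region, at percentile 9.96 ± 9.74 in the 11 libraries that called it. The test passed without 18mo untreated replicate 4 or 18mo contralateral replicate 3, and with peaks of -log10 q of at least 3, where 5 of 6 against 0 of 6 libraries called it (exact test, p = 0.0152 in each case). Of all testable regions, 490 of 14926, 546 of 14583 and 350 of 9316 were at unadjusted p under 0.05 in these settings, in that order.

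The number of peaks per gene did not pass between ages at any of the 9 genes that had peaks (exact permutation test, two-sided, 1.93% of 15306 genes at unadjusted p under 0.05 and none after adjustment). The smallest possible p, 0.00216, could pass adjustment only if many genes reached it. Of the 9 genes, 4 had a higher mean at 18 months and 5 a lower one, and with equal numbers of peaks per library Prox1 turned from higher to lower. The largest differences between means were 0.5 peaks, at Lhx1 (0.667 ± 0.516 at 18 months against 0.167 ± 0.408 at 3 months, SD, n = 6, permutation p = 0.242), Onecut1 (1.33 ± 0.516 against 1.83 ± 1.17, p = 0.652) and Slc6a9 (9.33 ± 1.51 against 9.83 ± 1.72, p = 0.716). Each was within 1 pooled SD between replicates of that gene. Their size depended on the libraries and the scale. Without 3mo contralateral replicate 2 the difference at Onecut1 was -0.0667, and leaving out 1 library moved that at Slc6a9 from -1.07 (without 3mo contralateral replicate 1) to -0.0333 (without 18mo contralateral replicate 2). With equal numbers of peaks per library the differences were -1.17 at Slc6a9, -1.0 at Prox1 and 0 at Lhx1. Within a kind of control, the age difference had opposite signs at some genes. It was 1.0 in contralateral and -1.33 in untreated libraries at Pax6, 1.0 and -0.667 at Tfap2a, and 0.667 and -0.333 at Prox1. The sign was the same at Lhx1, Gad1 and Onecut1, and the contralateral difference was 0 at Tfap2b, Onecut2 and Slc6a9. Groups of 3 libraries cannot go below a permutation p of 0.1. Over all genes, 264 of those at unadjusted p under 0.05 were higher and 31 lower at 18 months, a split that became 185 and 125 with equal numbers of peaks per library and 571 and 581 for peaks per 10000 of the library.

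**Figure D3:**
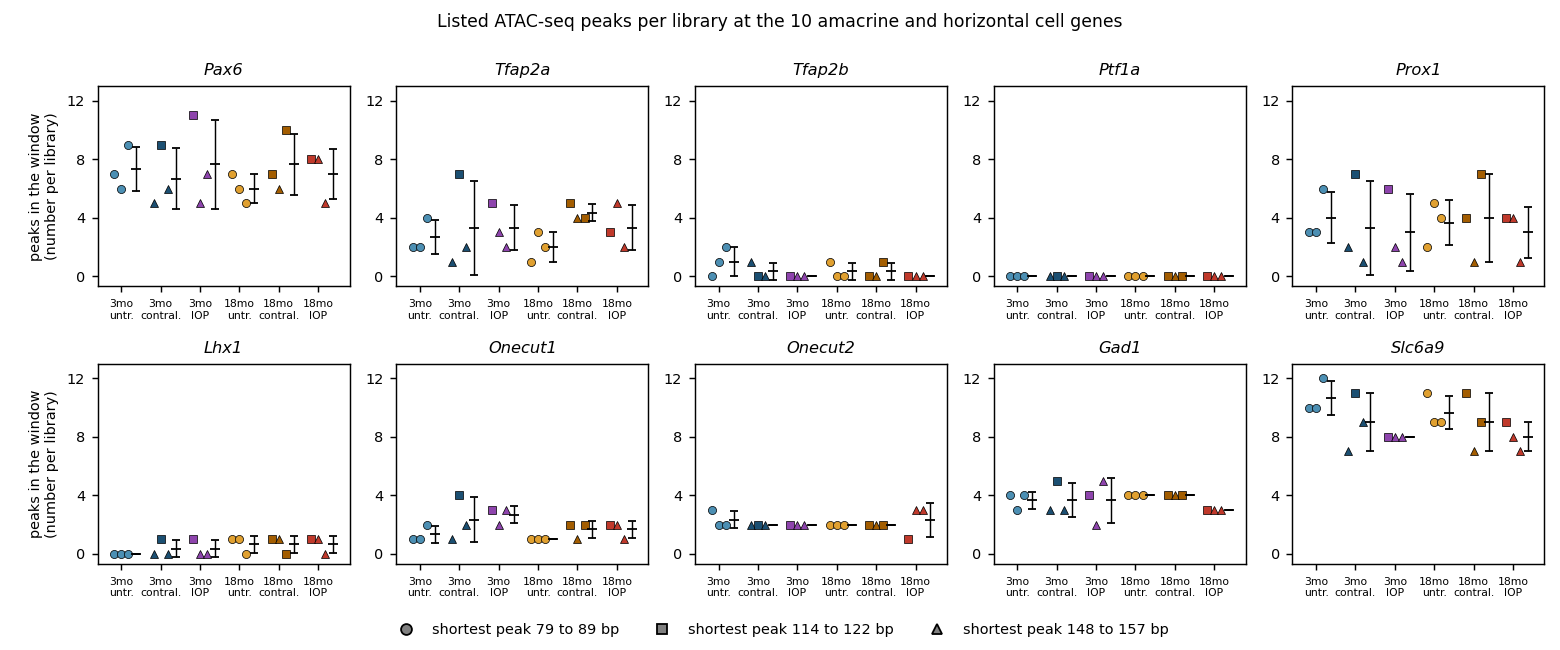
Number of listed peaks in the window of each of the 10 genes. Each symbol is 1 library, coloured by group, its shape gives the class of the shortest listed peak, and the bar to the right of each group is the mean with 1 SD (n = 3). At Gad1 the 18mo IOP libraries have 3 peaks each and the 18mo contralateral and untreated libraries 4 each, and at the other genes IOP and contralateral libraries of the same age overlap.

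To compare signal at regions called in all 18 libraries, the -log10 q of the strongest peak was ranked within each library and tested with limma, with all 6 groups in one fit. Percentiles here are among these 24751 regions. None of the 13 regions of the 10 genes passed the adjusted threshold for age, against 0.893% of all, and 2 had an unadjusted p under 0.05 (12.3% of all), both lower at 18 months (6.04% of all). Gad1 region 5 stood at percentiles 12.3, 11.1 and 6.28 in 3mo untreated and 17.4, 24.5 and 7.85 in 3mo contralateral libraries. At 18 months it stood at 2.37, 0.0586 and 5.06 in untreated and 3.79, 5.40 and 8.97 in contralateral libraries. The values at 18 months were lower without overlap in the untreated libraries (as for 9.13% of all regions) but overlapped in the contralateral ones, and the difference in normal scores was -0.77 ± 0.22 (SE, limma adjusted p = 0.130). Slc6a9 region 11 differed by -0.33 ± 0.12 (limma adjusted p = 0.219), with 39.2 ± 9.81 at 3 months and 28.0 ± 12.9 at 18 months (percentile, SD, n = 6), and its 18mo contralateral values lay below all 3mo ones (6.73% of all regions).

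To ask whether IOP elevation changed chromatin at these genes, IOP libraries were compared with contralateral libraries within each age, so that the contralateral libraries enter both this comparison and that by age. None of 6 testable regions of the 10 genes reached p = 0.05 in the exact test of calls (5.04% of 5572 regions overall) and none passed after adjustment. The smallest p that the libraries allow in this test, 0.005, could pass adjustment only if many regions reached it. The split of all regions at unadjusted p under 0.05 was 90 called more and 191 less often upon IOP, and 186 and 56 with equal numbers of peaks per library. Slc6a9 region 6, at a start 14725 bp into the gene, was the closest. It was called in all 3 contralateral and none of the 3 IOP libraries at 18 months, a pattern shown by 2.23% of all regions. At 3 months it was called in 2 of 3 contralateral and 1 of 3 IOP libraries, which gave an exact p of 0.095 over both ages. Without 3mo contralateral replicate 1 or 3mo IOP replicate 3 the exact p was 0.02. Of all testable regions, 799 of 10326 and 418 of 10300 were at unadjusted p under 0.05 in these settings.

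By number of peaks, none of the 9 genes passed for IOP (exact permutation test within age, two-sided, 1.46% of 13514 genes at unadjusted p under 0.05 and none adjusted). Here too the smallest possible p, 0.005, could pass adjustment only if many genes reached it. Over all genes the split at that threshold was 21 higher and 176 lower upon IOP, but 139 and 47 with equal numbers of peaks and 432 and 245 for peaks per 10000 of the library. The largest difference was at Slc6a9, with 8.0 ± 0.632 peaks upon IOP and 9.0 ± 1.79 in contralateral libraries (SD, n = 6, permutation p = 0.35), and it turned to slightly higher upon IOP per 10000 peaks of the library. At 18 months, Gad1 was the 1 of the 9 genes whose IOP libraries all lay below the contralateral libraries, and over both ages its mean difference turned to 0.5 peaks higher upon IOP with equal numbers of peaks. The difference between the IOP effects at 18 and 3 months was -1 peak for Gad1 (exact permutation p = 0.56), and it reached p = 0.05 at no member (0.377% of all genes). With libraries of 1 class of shortest peak side by side, the 10 genes together had 46 peaks in contralateral and 40 in IOP libraries (3mo, 114 to 122 bp), 22 and 25 against 24 and 28 (3mo, 148 to 157 bp), 36 and 39 against 31 (18mo, 114 to 122 bp) and 26 against 34 and 22 (18mo, 148 to 157 bp).

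By rank, no region of the 10 genes passed the adjusted threshold for IOP (0.638% of 24751). At unadjusted limma p under 0.05 (10.1% of all) were 2 intronic Slc6a9 regions, both higher upon IOP than in contralateral libraries (5.18% of all). Over both ages, mean percentiles at Slc6a9 region 8 were 40.0 upon IOP, 24.1 in contralateral and 49.7 in untreated libraries. At Slc6a9 region 11 they were 37.3, 25.4 and 41.8, so that untreated libraries had the highest mean at both regions. Slc6a9 region 8 stood at percentiles 33.6, 5.15 and 37.7 in 18mo contralateral and 54.3, 45.2 and 38.0 in 18mo IOP libraries, and at 25.2, 32.0 and 10.6 against 36.9, 35.6 and 30.1 at 3 months. The ranges overlapped at 3 months only, and the difference over both ages was 0.54 ± 0.19 in normal scores (SE, limma adjusted p = 0.294). In a fit with the class of shortest peak as a term, added after the data had been seen, it was 0.63 with an adjusted limma p of 0.0490, the lowest of its alternatives, which reached up to 0.488. Without that term the adjusted p stayed above the threshold in every fit that left out 1 library, from 0.194 to 0.443.

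Slc6a9 region 11 stood at 19.6, 16.9 and 14.7 in 18mo contralateral and 38.4, 30.6 and 45.6 in 18mo IOP libraries, again without overlap. At 3 months it stood at 34.1, 22.5 and 44.8 against 32.2, 45.5 and 31.7, and the ranges overlapped. The 3 18mo contralateral values were the lowest of the 18 libraries. The difference was 0.37 ± 0.12 over both ages (limma adjusted p = 0.218) and 0.65 ± 0.16 at 18 months (adjusted p = 0.129). Gad1 region 5 also stood higher without overlap at 18 months, at 23.3, 16.3 and 15.2 upon IOP against 3.79, 5.40 and 8.97, but not at 3 months, at 6.39, 6.26 and 15.7 against 17.4, 24.5 and 7.85. These 3 of 13 regions compare with 8.42% of all regions in which the 18mo IOP libraries all ranked above the contralateral ones. None of the 13 lay below at 18 months (7.7% of all), and at 3 months none lay above (4.17%) or below (3.87%). The IOP effect differed between ages at unadjusted p under 0.05 for Gad1 region 5 and Slc6a9 region 11 (4.59% of all regions), with a limma adjusted p of 0.970 for both, and no region passed after adjustment (0% of all).

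**Figure D4:**
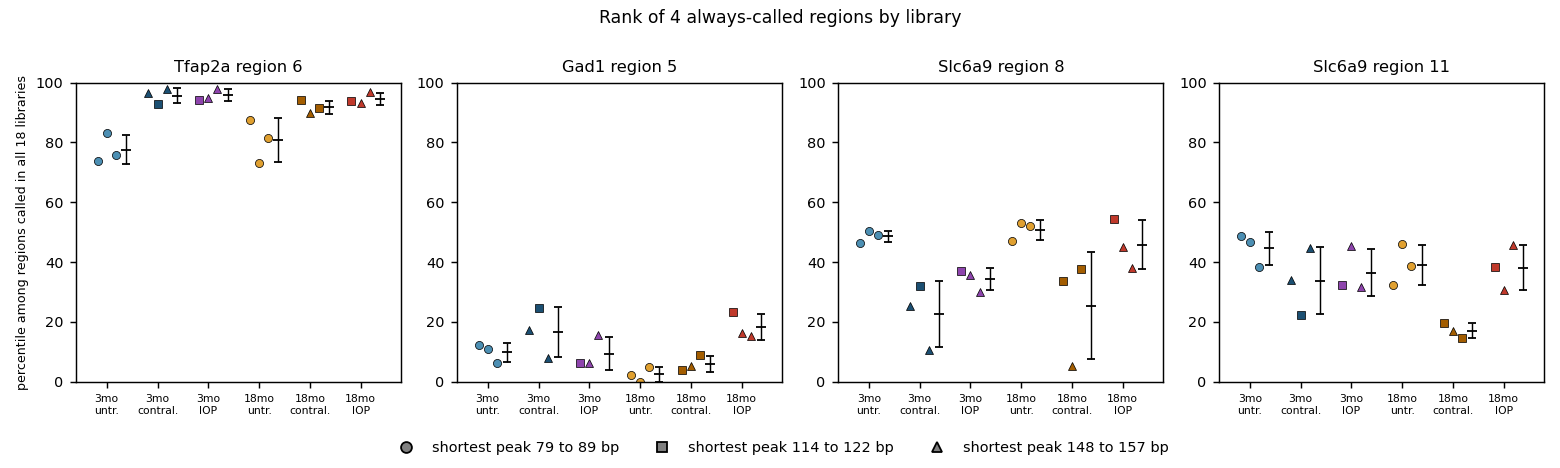
Percentile of 4 regions among the 24751 regions called in all 18 libraries. Each symbol is 1 library, its shape gives the class of the shortest listed peak, and bars are the mean with 1 SD (n = 3). Tfap2a region 6 is lower in untreated than in contralateral libraries, and Gad1 region 5 and Slc6a9 regions 8 and 11 are higher in 18mo IOP than in 18mo contralateral libraries. At Slc6a9 regions 8 and 11 the mean of the 18mo untreated libraries lies above that of the 18mo IOP libraries.

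Untreated and contralateral retinas are both controls, and they were compared to see how far they can stand for each other. Between 6 untreated and 6 contralateral libraries, the number of peaks passed at none of the 9 genes (exact permutation test, 10.1% of 15306 genes at unadjusted p under 0.05 and none adjusted). As for age, the smallest possible p, 0.00216, could pass adjustment only if many genes reached it. Over all genes the split was 1288 higher and 256 lower in untreated libraries, and 1080 and 604 with equal numbers of peaks per library. Tfap2a had 2.33 ± 1.03 peaks in untreated and 3.83 ± 2.14 in contralateral libraries (SD, n = 6, permutation p = 0.210). The test passed without 3mo contralateral replicate 1 (permutation p = 0.0476), as it did at 1708 of 15254 genes. Onecut1 had 1.17 ± 0.408 and 2.00 ± 1.10 (permutation p = 0.197). It passed when counts were taken per 10000 peaks of the library (permutation p = 0.0238), as did 2982 of 16998 genes.

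By rank, a comparison added after the data had been seen, 4 of the 13 regions passed the adjusted threshold between kinds of control (29.1% of all regions). Tfap2a region 6 stood at 73.0 to 87.6 in untreated and 89.7 to 97.8 in contralateral libraries, without overlap (6.05% of all regions were lower in this way), a difference of -0.75 ± 0.13 in normal scores (limma adjusted p = 0.0010). Slc6a9 region 8 was higher in all untreated than in all contralateral libraries (49.7 ± 2.67 against 24.1 ± 13.3, SD, n = 6, 5.58% of all regions), by 0.78 ± 0.19 (adjusted p = 0.0072). Slc6a9 region 11 was higher in untreated libraries by 0.48 ± 0.12 (limma adjusted p = 0.0067) and Slc6a9 region 1 lower by -0.50 ± 0.13 (adjusted p = 0.0123), both with overlapping ranges. Gad1 region 5 and Slc6a9 region 12 had an unadjusted p under 0.05 only, with adjusted limma p of 0.0985 and 0.0877. With the regions that passed adjusted, 6 of the 13 were at unadjusted p under 0.05, against 41.3% of all regions. As the class of shortest peak follows the kind of control, the 2 cannot be told apart.

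A further list of 34 amacrine and horizontal cell genes was read in the same way. Their promoters were called in all 18 libraries for 11 genes (32.4%, against 53.2% of all protein-coding genes). They were called in some libraries for 15 and in none for 8 (23.5%, against 35.8%). Among the 11 was Calb2, a calcium-binding protein of many amacrine cells, while Gad2, the other glutamate decarboxylase, was called in 14 libraries, and Gja10, a horizontal cell connexin, had no peak at all. By number of peaks, Onecut3 (3.67 ± 0.516 at 18 months against 2.5 ± 0.548 at 3 months, SD, n = 6, permutation p = 0.0216) and Lhx9 (3.67 ± 0.516 against 2.67 ± 0.516, permutation p = 0.0325) were at unadjusted p under 0.05 for age, as were 1.93% of 15306 genes. For IOP none of the 34 was (1.46% of 13514 genes). For the kind of control, 10.1% of 15306 genes were at this threshold. Those of the list included Bhlhe22, Neurod2 and Th, each with fewer peaks in untreated libraries (permutation p from 0.0216 to 0.0455). None passed after adjustment in any comparison.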

How the data were processed

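ATAC-seq peak lists of 18 bulk retina libraries were used as deposited, 1 list per library, on mm10. Per the labels' processing notes, the tools were STAR 2.7.8a, MACS2, HOMER, edgeR and bedtools 2.29.2, and no peak ran past the end of the 21 chromosomes checked. For each peak the authors' peak caller gave a score, a fold over background (a ratio), a -log10 p and a -log10 q, and every peak had a q-value of at most 0.05. Peak lists hold no read counts, so read depth is unknown here, and no count model was used. Untreated libraries were listed with narrower peaks.

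Peaks of the 18 lists sharing at least 1 bp were merged into regions. Calls were compared with an exact test and peaks per gene with an exact permutation test, both by age over 924 and by IOP over 400 arrangements where all libraries enter. At the regions called in every library, the -log10 q of the strongest peak was turned into normal scores of its rank and tested with limma 3.58.1 in R 4.3.3, with 1 mean per group. P-values were adjusted over all genes or regions by Benjamini-Hochberg. Other steps used Python 3.11.15, scipy 1.17.1, pysam 0.24.0 and samtools 1.23.1. Statistics were tested on simulated data.

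All 10 genes are named, each with the region at its start, its strongest region elsewhere and any region at unadjusted p under 0.05 or with peaks throughout one side of a comparison and nowhere on the other. A further list of 34 genes is given by counts, with values for those of smallest p, and some of its genes are not reported here by name. Where other further-list genes are named (Calb2, Gad2, Gja10), they were chosen after their values were seen. The members and lists were chosen with earlier results of these data known. Alternatives covered the window, peak threshold, number of peaks, merging, scale and left-out libraries. The rank comparison of untreated with contralateral libraries, the term for the class of shortest peak, and the values within kinds of control and within classes were added after seeing the data.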

Additional observations from a re-analysis of the deposited data

Results flagged for a closer look

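In 3mo control libraries, 1 library lay far from the other 5 at 3 genes: Lhx1 had 1 peak in contralateral replicate 2 and 0 in the others, Onecut1 had 4 peaks in contralateral replicate 2, and Onecut2 had 3 peaks in untreated replicate 4 and 2 in the others. These are 3 of 44 sets of 6 control libraries examined, which hold both peak counts and percentiles. The rule is set to flag about 1 in 20 sets of continuous values by chance. For small counts that rate does not hold, since 1 library that differs from 5 equal ones is always flagged. Contralateral replicate 2 also had the most peaks over the 10 genes, 46, and belonged to the 114 to 122 bp class of shortest peak. The part of that class in these counts was not tested.

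The IOP effect on rank differed between ages at 2 regions by the interaction term of the limma fit, without adjustment. For Gad1 region 5 the effect at 18 months minus that at 3 months was 1.00142 normal scores, and for Slc6a9 region 11 it was 0.570147. Neither passed after adjustment (limma adjusted p = 0.970), and the unadjusted threshold was missed in 7 of 18 fits that left out 1 library for Gad1 region 5 and in 5 of 18 for Slc6a9 region 11.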

How the results depend on the processing

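Counts below are regions or genes among the 10 genes at unadjusted p under 0.05, and no called result reversed under any alternative run. By calls, age gave 0 regions (353 of 9868 over all testable regions) and 1 with -log10 q of at least 3 (350 of 9316). It gave 0 to 1 when 1 library was left out, with 1 without 18mo untreated replicate 4 (490 of 14926) or 18mo contralateral replicate 3 (546 of 14583). IOP gave 0 (281 of 5572 over all), and 0 to 1 when 1 library was left out. The 1 came without 3mo contralateral replicate 1 (799 of 10326) or without 3mo IOP replicate 3 (418 of 10300). By peaks per gene, untreated against contralateral libraries gave 0 genes (1544 of 15306 over all genes) and 1 per 10000 peaks of the library (2982 of 16998). They gave 0 to 1 when 1 library was left out, with 1 without 3mo contralateral replicate 1 (1708 of 15254). By rank, age gave 2 regions (12.3% of all regions), and 1 over the 12 controls with no term for kind of control. It gave 2 to 4 when 1 library was left out (4 without 3mo untreated replicate 6). The IOP effect by age gave 2 (4.59% of all regions), 0 by fold over background, and 1 to 2 when 1 library was left out. Untreated against contralateral libraries gave 4 adjusted, 7 by fold over background (over all regions 3389 higher and 3808 lower, and 4401 and 3966 by fold), and 4 to 5 when 1 library was left out. Of all 24751 regions, 221 passed adjusted for age and 158 for IOP, against 412 and 276 among regions called in at least 15 libraries, 81 and 35 by fold, and 109 (without 18mo untreated replicate 6) to 227 and 86 (without 3mo IOP replicate 3) to 278 (without 3mo IOP replicate 1) when 1 library was left out. By fold, Gad1 region 5 and Slc6a9 regions 2 and 12 also passed adjusted between kinds of control. With the class term, added after seeing the data, they were 343 and 281, and over the 12 controls with no term for kind of control 20 passed for age.

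The labels do not say that equal replicate numbers mark the same mouse, and they were not treated as pairs: over 12 pairs, deviations of same-numbered libraries correlated from -0.139 to 0.0980, and 5 of 12 correlated best with their own number. With a replicate block, the IOP rank comparison gave 1 region at unadjusted p under 0.05 instead of 2. Slc6a9 region 11 no longer reached it, with a limma adjusted p of 0.615 against 0.218 without the block. The age rank comparison gave 2 regions, and the call and gene comparisons gave 0. Of all regions, 3 passed the adjusted threshold by rank for age and 22 for IOP. Age calls within 1 kind of control had no value, since 3 against 3 libraries cannot go below 0.1. Read depth was not known, so that its limits on calling could not be measured.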
